A study of Mus musculus with 42 samples.

Results

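Mouse genomic regions with a strong SOX2 peak in most libraries with WNT signalling activated and in none without it were examined across 3 genotypes. They are called gained regions below. The 384 regions were chosen by their SOX2 peaks alone. Each had a peak among the 20000 best of at least 6 of the 9 SOX2 lists made with CHIR99021 (CHIR) and of none of the 3 lists made without it (noCHIR). They were 0.313% of the 122617 regions obtained by merging the 20000 best peaks of all 12 SOX2 lists. For comparison, 5517 regions met the same demand on the CHIR lists but also had a peak in at least 1 noCHIR list (shared regions), and 2819 regions had a peak in at least 2 noCHIR lists and in no CHIR list (noCHIR-only regions).

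SOX2 is a transcription factor of the SOX family that binds short DNA elements in pluripotent and neural cells. In the canonical WNT pathway a stabilised pool of β-catenin enters the nucleus and binds DNA through TCF/LEF factors such as LEF1. In the caudal epiblast, the tissue at the tail end of the embryo that gives rise to spinal cord and trunk mesoderm, WNT signalling accompanies the expression of Cdx genes, posterior Hox genes and T (Brachyury). CDX factors are homeodomain proteins and T/BRA is a T-box protein.

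The study mapped SOX2, β-catenin and LEF1 by ChIP–seq, which sequences the DNA recovered with an antibody to the protein, in epiblast-like cells made from HM1 mouse embryonic stem cells of 129 background. Every group received bFGF (10 ng/ml) and LGK974 (5 µM, which blocks WNT secretion) in N2/B27 medium and was collected at 72 h. CHIR, an inhibitor of the kinase GSK3 that activates WNT signalling inside the cell, was added for the last day to wild-type cells (WT), to cells mutant for Cdx1, Cdx2 and Cdx4 (Cdx1/2/4-/-, CdxKO) and to cells mutant for T/Bra (T/Bra-/-, T/BraKO). SOX2 was also mapped in WT noCHIR cells, with 3 libraries in each of the 10 groups. No noCHIR library of either mutant was analysed here, so a region gained with CHIR was absent from WT noCHIR lists only. Each genotype was a different cell line, so line and genotype cannot be told apart. The DNA read was of 129 origin and the reference was C57BL/6J.

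The 30 deposited peak lists held between 26940 and 1008922 peaks, and no read totals were given, so depth is unknown. The 20000th peak of a SOX2 list had a −log10 q between 3.26 and 14.1 and a fold enrichment over local background between 4.79 and 9.75. The same rank therefore stood for different strengths in different lists. This −log10 q was 9.04, 9.16 and 9.63 in the noCHIR lists. It was 14.1, 7.28 and 8.20 in WT CHIR, 6.68 to 7.71 in CdxKO and 3.26 to 7.67 in T/BraKO. Except for WT CHIR replicate 1, a peak of the same q could thus be kept in a CHIR list and left out of a noCHIR list. Values at single regions are fold enrichments as the authors' peak caller gave them. They describe the peak of one library and have no error of their own, and they were not scaled between libraries, so differences between genotypes in fold at one region were not tested.

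Sequences of 8 regions are shown because they are those with the best mean rank over the 9 CHIR SOX2 lists or the best-ranked carriers of a motif. Each reaches 100 bp to both sides on the plus strand of GRCm38 (mm10) from the summit of the best CHIR SOX2 peak, and each region is called by the nearest start of a protein-coding gene. Capitals mark SOX motifs (CCATTGT or CCTTTGT), TCF/LEF motifs (CTTTGAA or CTTTGAT), CDX motifs (CAATAAA or TAATAAA or CCATAAA or TCATAAA) and the T-box motif (AGGTGTGA) on either strand. The SOX motif CCTTTGT and the TCF/LEF motifs share the letters CTTTG and differ in the base that follows. The windows lie at chr2:167379408-167379608 (nearest to B4galt5), chr5:133675734-133675934 (nearest to Castor2), chrX:38566874-38567074 (nearest to Cul4b), chr15:73414217-73414417 (nearest to Ptk2), chr14:49155600-49155800 (nearest to Naa30), chr8:46446038-46446238 (nearest to Acsl1), chr3:155746729-155746929 (nearest to Lrriq3) and chr17:82348689-82348889 (nearest to Slc8a1).
B4galt5: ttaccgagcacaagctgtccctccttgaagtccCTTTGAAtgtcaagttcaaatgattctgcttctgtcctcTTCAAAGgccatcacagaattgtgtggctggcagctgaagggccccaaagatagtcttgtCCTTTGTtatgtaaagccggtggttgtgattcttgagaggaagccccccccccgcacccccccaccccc
Castor2: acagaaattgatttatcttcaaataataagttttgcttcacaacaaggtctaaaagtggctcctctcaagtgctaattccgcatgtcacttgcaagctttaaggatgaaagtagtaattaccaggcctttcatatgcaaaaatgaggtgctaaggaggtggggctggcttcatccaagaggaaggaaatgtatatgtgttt
Cul4b: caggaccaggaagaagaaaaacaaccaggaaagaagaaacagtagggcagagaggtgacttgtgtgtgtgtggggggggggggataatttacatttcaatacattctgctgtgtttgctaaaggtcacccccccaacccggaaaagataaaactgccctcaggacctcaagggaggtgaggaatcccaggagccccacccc
Ptk2: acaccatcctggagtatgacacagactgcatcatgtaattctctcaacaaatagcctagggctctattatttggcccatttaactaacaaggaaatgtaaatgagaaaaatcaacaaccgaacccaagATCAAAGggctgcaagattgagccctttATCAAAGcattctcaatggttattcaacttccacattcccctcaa
Naa30: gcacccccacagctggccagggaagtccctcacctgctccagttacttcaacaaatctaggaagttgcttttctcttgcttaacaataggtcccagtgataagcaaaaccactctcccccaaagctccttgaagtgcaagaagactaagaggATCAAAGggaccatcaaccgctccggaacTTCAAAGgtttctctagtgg
Acsl1: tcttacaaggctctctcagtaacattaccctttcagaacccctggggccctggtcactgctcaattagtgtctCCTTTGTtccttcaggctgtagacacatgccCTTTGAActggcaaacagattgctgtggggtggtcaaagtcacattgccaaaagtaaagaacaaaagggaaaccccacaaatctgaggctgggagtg
Lrriq3: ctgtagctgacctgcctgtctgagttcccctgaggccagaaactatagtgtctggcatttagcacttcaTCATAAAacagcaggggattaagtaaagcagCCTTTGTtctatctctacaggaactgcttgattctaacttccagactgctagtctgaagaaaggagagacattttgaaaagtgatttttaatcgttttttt
Slc8a1: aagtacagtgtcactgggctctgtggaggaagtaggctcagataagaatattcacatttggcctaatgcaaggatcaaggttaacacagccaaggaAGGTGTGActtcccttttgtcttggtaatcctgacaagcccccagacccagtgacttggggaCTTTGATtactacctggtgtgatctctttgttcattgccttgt
The B4galt5 and Acsl1 windows held both a SOX and a TCF/LEF motif. The Ptk2 and Naa30 windows held a pair of TCF/LEF motifs each and no SOX motif of these letters. The Lrriq3 window was the best-ranked with a CDX motif and had a SOX motif at the summit. The Slc8a1 window was the best-ranked with a T-box motif and also held a TCF/LEF motif. The Castor2 and Cul4b windows held none of the 4 motifs.

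SOX2 peaks at the 384 regions were used to choose them and are given as a description. In the 20000 best peaks, 45.1%, 49.2% and 90.1% of the regions were called in WT CHIR replicates 1 to 3. The shares were 83.1%, 84.9% and 78.9% in CdxKO and 74.5%, 82.0% and 90.6% in T/BraKO. The 2 WT CHIR libraries with the low shares thus lay below all other CHIR libraries, and the same 2 libraries called only 56.8% and 56.3% of the shared regions. Only 26 regions were called in all 9 CHIR lists, 51 in 8, 121 in 7 and 186 in exactly 6. A peak in at least 2 of 3 lists of every genotype was present at 175 regions. Among the best 20000, 12 regions had no WT CHIR peak and 121 had one in 1 of 3 WT CHIR lists. At these regions most CHIR peaks came from the mutants, of which no noCHIR library was analysed. A gain with CHIR within 1 genotype was therefore not shown for them. Shared regions were called more broadly, with 27.6% of them in all 9 CHIR lists against 6.77% of the gained regions.

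**Figure D1:**
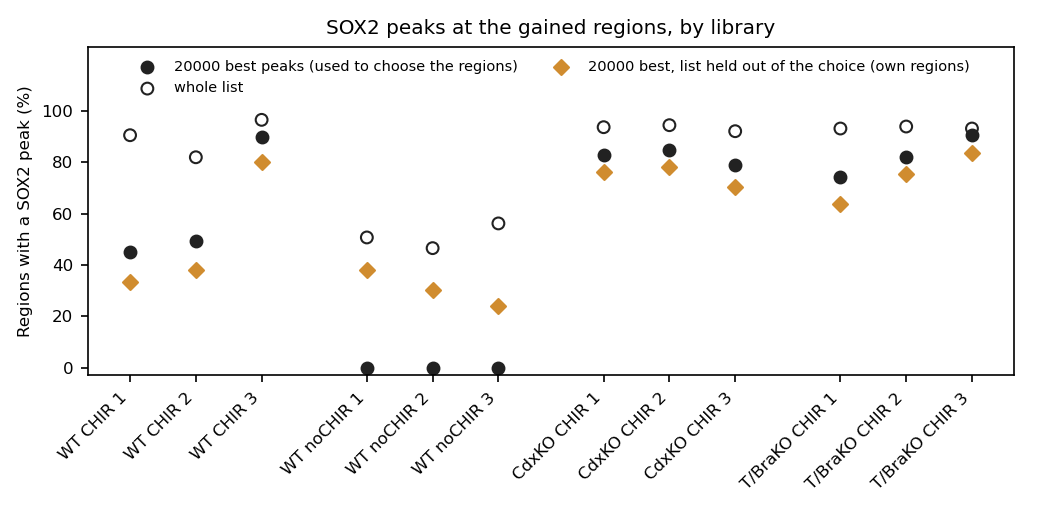
Percentage of regions with a SOX2 peak in each of the 12 SOX2 libraries. Filled circles are the 384 gained regions in the 20000 best peaks, which chose them, open circles are the same regions in the whole list, and diamonds are regions chosen again without that library; WT CHIR replicates 1 and 2 lie at 33.4% and 38.0% when held out, within or near the noCHIR values of 23.9% to 38.0%.

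Absence from the 20000 best noCHIR peaks did not mean absence from the noCHIR lists. The whole noCHIR lists held a weaker peak at 195, 179 and 216 of the 384 regions, at a median fold enrichment of 4.93, 4.92 and 4.85. At the shared regions the median in those lists was 13.5, 13.3 and 11.4. The best ranks of gained regions in the 3 lists were 20011, 20024 and 20004, just past the limit of 20000. No peak in any whole noCHIR list was found at 81 regions, while 93 regions had one in all 3. Just outside the rule, 354 regions had 5 CHIR lists and no noCHIR list, and 516 had at least 6 CHIR lists and 1 noCHIR list.

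When each library was left out of the choice in turn, the share of the newly chosen regions called in it gave a reading that the choice had not fixed. Averaged over the noCHIR library left out with it, this share was 33.4%, 38.0% and 80.4% in WT CHIR, 76.1%, 78.2% and 70.3% in CdxKO and 63.7%, 75.4% and 83.7% in T/BraKO. The noCHIR libraries gave 38.0%, 30.4% and 23.9%. The 6 mutant libraries and WT replicate 3 lay above all noCHIR libraries, whereas WT replicates 1 and 2 overlapped with them. Within WT the CHIR and noCHIR values therefore overlapped, and the sets chosen this way held 291 to 515 regions.

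The strongest gained region lay in intergenic sequence 30325 bp upstream of B4galt5, which encodes a galactosyltransferase (chr2:167378941-167380049). Its SOX2 fold enrichment was 14.4, 13.3 and 29.5 in WT CHIR, 31.3, 21.0 and 15.6 in CdxKO and 17.7, 22.2 and 18.02 in T/BraKO. No noCHIR list held a peak there at any rank. β-catenin was enriched there 32.4-, 56.5- and 85.2-fold in WT, and LEF1 24.5-, 29.5- and 26.8-fold. All 18 β-catenin and LEF1 lists had a peak within 250 bp of the SOX2 summit.

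The region upstream of Naa30, which encodes the catalytic subunit of an N-terminal acetyltransferase, had no noCHIR peak either (chr14:49155445-49156102, 16526 bp from the start). SOX2 fold enrichment there was 10.3, 13.4 and 28.4 in WT, 23.9, 20.6 and 30.5 in CdxKO and 16.7, 32.2 and 25.8 in T/BraKO. β-catenin was between 97.6- and 179-fold enriched in the 9 libraries and LEF1 between 31.6- and 77.2-fold. It had the pair of TCF/LEF motifs printed above.

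The region in an intron of Ptk2, the focal adhesion kinase gene (chr15:73414186-73414564), showed SOX2 at 11.5-, 19.3- and 19.9-fold in WT, 16.5-, 14.6- and 17.2-fold in CdxKO and 13.8-, 11.96- and 12.7-fold in T/BraKO. Its only noCHIR peak was 4.82-fold, at rank 68096 of replicate 3. The groups did not overlap in fold between CHIR and noCHIR, which the choice had set. β-catenin had a peak in all 9 lists and LEF1 in 8.

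Other leading regions lacked LEF1. The region in Cul4b, a ubiquitin ligase scaffold gene on the X chromosome, had SOX2 at 7.53- to 36.9-fold in the 9 CHIR libraries and β-catenin at 5.76- to 14.5-fold, with no LEF1 peak in 9 lists. It was called in all 3 whole noCHIR lists at 3.86- to 6.88-fold. The region 146030 bp upstream of Sh3bp4 had β-catenin in 9 lists and LEF1 in none as well. It had noCHIR peaks at ranks 25308 and 20024 of replicates 1 and 2, at 6.12- and 6.82-fold. The remaining leading regions were nearest to Castor2, Acsl1, Lrriq3, Ntn1 (the secreted guidance cue netrin 1), Vwc2, Rims2 and T2, all with β-catenin in 9 of 9 lists and with LEF1 in 2 to 9. Of these, Lrriq3 and Ntn1 had a peak in all 3 whole noCHIR lists. Castor2 and Vwc2 had one in 2 lists, Acsl1 in 1, and Rims2 and T2 in none.

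The last of the 12 regions lay within 1000 bp of an annotated transcription start inside T2, and 45160 bp upstream of T, the gene for Brachyury (chr17:8389003-8390185). No whole noCHIR list held a peak there. SOX2 was enriched there 6.69-, 13.7- and 23.9-fold in WT, 21.0-, 17.6- and 19.4-fold in CdxKO and 27.1-, 23.7- and 24.1-fold in T/BraKO. β-catenin was enriched 46.2-, 57.6- and 74.9-fold in WT, 42.6-, 43.7- and 18.8-fold in CdxKO and 109-, 83.1- and 121-fold in T/BraKO. The T/BraKO values of β-catenin lay above those of both other genotypes, a contrast noticed after the values were seen.

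Whether the gained regions were also bound by the WNT effectors was asked with lists that had no part in choosing them. A β-catenin peak among the 20000 best of a library lay within 250 bp of the SOX2 summit at 68.3% ± 5.88 (SD, n = 9 libraries) of the gained regions. At shared regions this share was 49.4% ± 6.86, and at noCHIR-only regions 4.34% ± 1.25. Over all merged regions it was 8.08% ± 1.12. The gained regions exceeded the shared regions in 9 of 9 libraries, by 18.95 percentage points on average and by 14.1 to 24.0 in single libraries (two-sided exact sign-flip permutation test over libraries, p = 0.00391, the smallest it can give; Benjamini-Hochberg adjusted p = 0.00391 over 2 factors).

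LEF1 gave the same order at lower shares. A LEF1 peak was present at 29.5% ± 3.18 (SD, n = 9 libraries) of the gained regions, at 14.4% ± 2.72 of the shared regions and at 1.12% ± 0.183 of the noCHIR-only regions. The gained regions exceeded the shared regions by 15.1 points, again in 9 of 9 libraries, with single values of 12.3 to 19.9 (two-sided exact sign-flip permutation test, p = 0.00391; adjusted p = 0.00391). The same comparisons held for regions of 6 or 7 CHIR lists in both sets, for regions of mean rank above 10000 and for regions over 1000 bp from a transcription start. No β-catenin or LEF1 library without CHIR was analysed here, so these shares describe CHIR cells only.

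**Figure D2:**
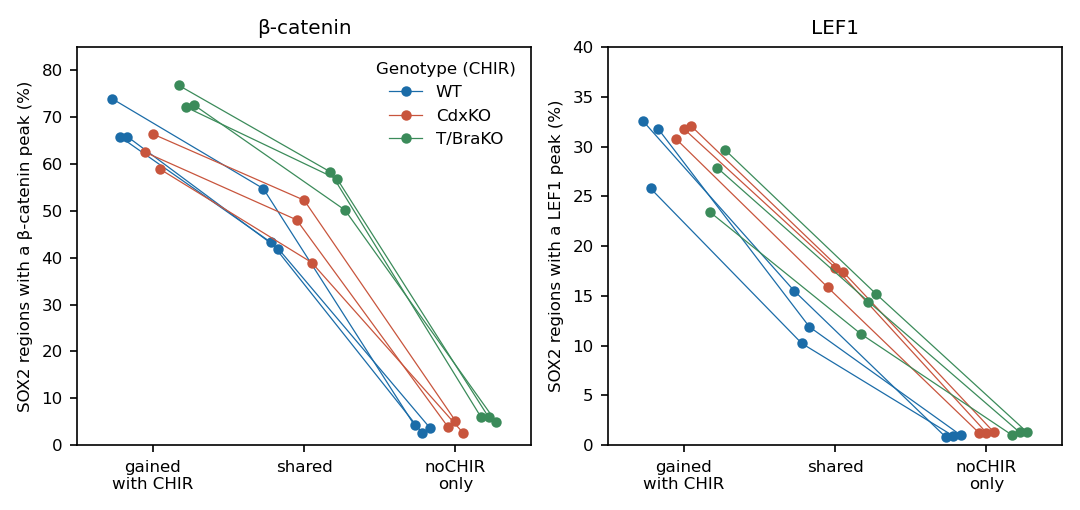
Percentage of gained, shared and noCHIR-only SOX2 regions with a β-catenin (left) or LEF1 (right) peak among the 20000 best of each CHIR library; each line is 1 library and colours are genotypes. Every line falls from the gained to the shared regions, from between 58.9% and 76.8% to between 39.0% and 58.4% for β-catenin.

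By region, 170 of the 384 gained regions had a β-catenin peak in all 9 lists (44.3%, against 22.5% of the shared and 2.14% of all merged regions) and 39 in none. LEF1 was found in all 9 lists at 23 regions (5.99%, against 2.48% and 0.171%) and in none at 145. Of the 88 gained regions with LEF1 in at least 6 lists, 86 also had β-catenin in at least 6. Neither factor was found in any list at 32 regions, or 8.33%, against 17.7% of the shared regions. The summits lay close together: the median distance from the SOX2 summit to the β-catenin summit was 26 to 33 bp in the 9 libraries, and to the LEF1 summit 28 to 44 bp.

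The gained regions differed among themselves in both factors. At the 81 regions with no SOX2 peak in any whole noCHIR list the β-catenin share was 84.0% ± 8.82 (SD, n = 9 libraries) and the LEF1 share 41.8% ± 4.55. At the 93 regions with a weak peak in all 3 whole noCHIR lists they were 57.2% ± 7.99 and 19.1% ± 4.33. Just outside the rule, β-catenin was present at 50.9% ± 7.31 of those in 5 CHIR lists and 57.6% ± 5.19 of those with 1 noCHIR list. These values are set side by side and were not tested. The β-catenin share was 50.8% ± 10.1 at the 49 gained regions near a transcription start, 72.1% ± 5.60 in introns and 70.8% ± 6.10 between genes.

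The DNA under the SOX2 summits differed from that of the shared regions chiefly in TCF/LEF motifs. Within 100 bp of the summit, CTTTGAA or CTTTGAT on either strand was present at 39.8% of the gained regions (153 of 384, 95% Wilson interval 35.1 to 44.8). It was present at 14.4% of the shared regions (13.5 to 15.3), 7.34% of the noCHIR-only regions (6.44 to 8.37) and 10.5% of all merged regions. Windows of the same length moved by 1000 bp held it at 8.33% for gained and 8.01% for shared regions. Intervals here cover counting error over regions, which are not replicates.

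SOX motifs were less frequent at the gained than at the shared regions. CCATTGT or CCTTTGT was present at 26.8% of them (22.6 to 31.5), at 34.5% of the shared regions (33.3 to 35.8) and at 32.7% of the noCHIR-only regions (31.0 to 34.4), with 5.99% in moved windows. The composite SOX-POU motif TTGTNATGC, which SOX2 occupies together with POU5F1 in pluripotent cells, was present at 2.60% of the gained (1.42 to 4.73) and 6.82% of the shared regions (6.18 to 7.51). The POU octamer ATGCAAA did not separate the sets, at 13.5% (10.5 to 17.3) and 12.02% (11.2 to 12.9).

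**Figure D3:**
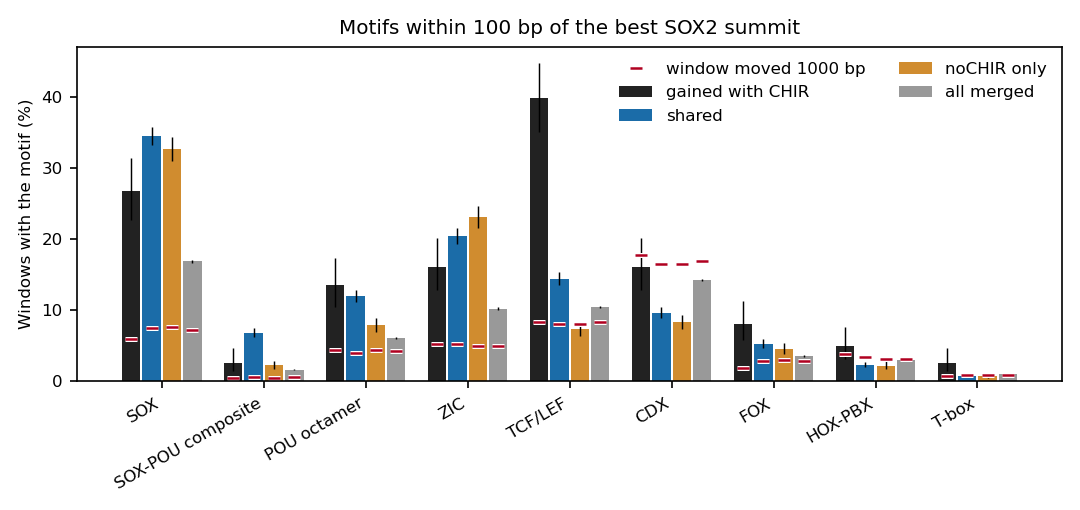
Percentage of windows reaching 100 bp to each side of the summit with each motif at gained, shared, noCHIR-only and all merged SOX2 regions; bars carry 95% Wilson intervals and red dashes mark windows moved by 1000 bp. TCF/LEF motifs stand at 39.8% of the gained and 14.4% of the shared regions, while SOX motifs stand at 26.8% and 34.5%.

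CDX motifs were present at 16.1% of the gained (12.8 to 20.2) and 9.66% of the shared regions (8.91 to 10.5). Moved windows held them at 17.7% and 16.5%, so the gained regions lay at the level of nearby DNA and the shared regions below it. The T-box motif was present at 2.60% of the gained (10 regions, 1.42 to 4.73) and 0.725% of the shared regions (0.533 to 0.986). Of 19 motifs searched, the intervals of gained and shared regions did not overlap for 8. CDX, T-box, TCF/LEF, MEIS (CTGTCA) and HOX-PBX (TGATTNAT) letters were more frequent at the gained regions, and SOX, SOX-POU and CTCF letters less frequent.

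Without any chosen motif, the same letters led a count of all 7-letter words within 50 bp of the summit. ATCAAAG, the reverse complement of CTTTGAT, was present at 15.6% of the gained and 3.86% of the shared regions, the largest difference. TCAAAGG and TTCAAAG, which extend the same core, followed at 14.8% against 4.64% and 15.1% against 4.97%. The largest difference in the other direction was CTTTTGT, at 8.85% against 14.4%. TCF/LEF matches lay nearer the SOX2 summit at the gained regions, with the nearest match at a median of 28 bp against 38 bp at shared regions. For SOX matches the order was the opposite, at 29 bp against 22 bp.

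**Figure D4:**
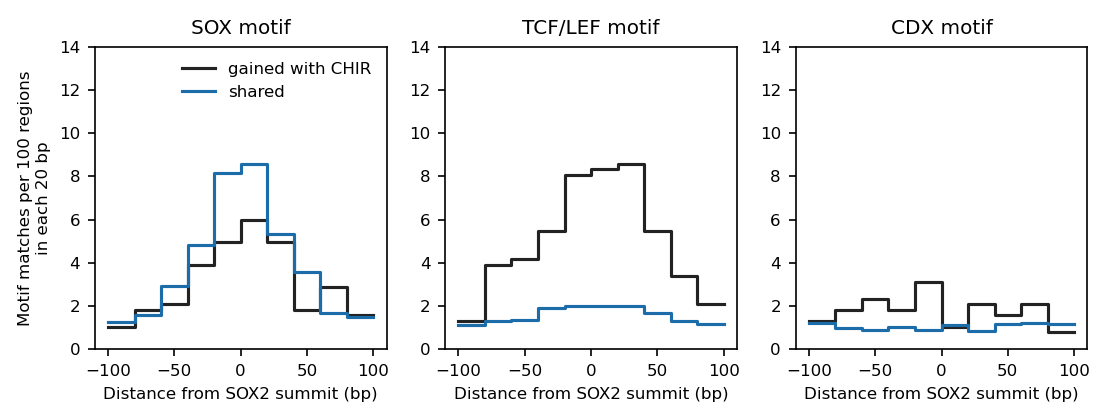
Number of SOX, TCF/LEF and CDX motif matches per 100 regions in bins of 20 bp around the best SOX2 summit, for gained and shared regions. At the gained regions TCF/LEF matches peak around the SOX2 summit, as SOX matches do in both sets, and shared regions have fewer TCF/LEF matches in every bin.

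Motif and occupancy went together within the gained regions. The TCF/LEF motif was present at 73.9% of the 88 gained regions with LEF1 in at least 6 lists (63.8 to 81.9) and at 15.2% of the 145 with LEF1 in none (10.2 to 21.9). The SOX motif ran the other way, at 17.0% (10.6 to 26.2) and 32.4% (25.3 to 40.4). Gained regions absent from the whole noCHIR lists held the TCF/LEF motif at 54.3% (43.5 to 64.7), against 25.8% (17.998 to 35.5) for those in all 3 of them. None of the SOX, CDX, TCF/LEF and T-box motifs was found in 140 of the 384 windows, which says only that these letters were not there.

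The share of gained regions with a β-catenin peak was compared between genotypes. SOX2 calls in the same genotypes chose the regions. In WT CHIR 85 of them were called in 3 of 3 lists, in CdxKO 234 and in T/BraKO 221. The choice therefore bears on these comparisons, and the tests cannot separate it from an effect of the mutations. The β-catenin share was 74.0%, 65.9% and 65.9% in WT, 62.5%, 66.4% and 58.9% in CdxKO and 76.8%, 72.1% and 72.7% in T/BraKO. WT and CdxKO overlapped, WT and T/BraKO overlapped, and every T/BraKO value lay above every CdxKO value. Genotype accounted for 69.2% of the variance among the 9 libraries (exact permutation test over the 280 partitions, p = 0.0321; adjusted p = 0.0643 over 2 factors). By the same exact permutation test it passed the threshold with the 10000 best peaks (76.96%, adjusted p = 0.0286) and without WT replicate 1 (82.7%, adjusted p = 0.0286), but gave 54.99% (exact permutation, adjusted p = 0.143) for regions in at least 5 of the 7 CHIR lists other than WT replicates 1 and 2. WT exceeded CdxKO by 5.99 points (exact permutation p = 0.3, adjusted p = 0.533 over 4 pairs) and fell short of T/BraKO by 5.30 points (p = 0.3, adjusted p = 0.533), in a design whose smallest p is 0.1. The difference from CdxKO was 1.93 points with those 7 lists, 3.30 without WT replicate 1 and 16.5 at the 81 regions absent from the whole noCHIR lists.

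The LEF1 share was 32.6%, 25.8% and 31.8% in WT, 30.7%, 31.8% and 32.03% in CdxKO and 23.4%, 27.9% and 29.7% in T/BraKO. WT overlapped with both mutants, and every T/BraKO value lay below every CdxKO value. The choice of regions by SOX2 calls in the same genotypes bears on the LEF1 comparisons as well. Genotype accounted for 39.3% of the variance (exact permutation p = 0.2; adjusted p = 0.2). The difference of WT from CdxKO was -1.48 points (exact permutation p = 0.9, adjusted p = 0.9) and that of WT from T/BraKO 3.04 points (p = 0.4, adjusted p = 0.533). The sign of both depended on the processing: with full lists WT lay 4.43 points below T/BraKO (a difference of -4.43), and at the 81 regions absent from the whole noCHIR lists WT lay 5.76 points above CdxKO.

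Single regions called in every library of one genotype and none of another were counted next. A β-catenin peak in 3 of 3 WT lists and 0 of 3 CdxKO lists was found at 13 of the 384 gained regions (3.39%), against a background of 0.236% of all merged regions and 0.798% of the shared regions. The reverse was found at 2 gained regions (0.521%, background 0.118%, shared regions 0.381%). Of the 13, 10 held a CDX motif, where 62 of the 384 gained regions did; the choice of regions by SOX2 lists bears on this count. Among them were regions nearest to Ppp3ca, 5730596B20Rik, Mitf, Vgll4, Sult6b2, Fank1, Polr2m, Vstm2a, Hoxb8, BC067074, Qk and Ctag2. Against T/BraKO, 7 gained regions had β-catenin in 3 of 3 WT lists and none of the mutant (1.82%, background 0.209%, shared regions 0.344%), among them the one at Mesp1. The reverse was found at 6 (1.56%, background 0.332%), close to the 1.29% of the shared regions. No β-catenin peak in any of the 9 lists was present at 78.4% of all merged and 20.2% of the shared regions. The backgrounds over all merged regions are therefore low for regions rich in β-catenin.

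For LEF1, 1 gained region, nearest to Mitf, was called in 3 of 3 WT and 0 of 3 CdxKO lists (0.260%, background 0.0253%, shared regions 0.109%), and 3 the reverse (0.781%, background 0.0775%, shared regions 0.598%). Against T/BraKO, 10 were called in WT only (2.60%, background 0.0742%, shared regions 0.344%) and 2 in the mutant only (0.521%, background 0.0204%, shared regions 0.272%). Most merged regions had no LEF1 peak at all, 87.3% of them in none of the 9 lists, so these backgrounds are low for regions that are rich in LEF1. The comparisons with CdxKO and with T/BraKO share the WT libraries.

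β-catenin at gained regions with and without a CDX motif is given as a description. A region lost from CdxKO SOX2 lists could enter the set only through WT and T/BraKO lists, so the choice of regions bears on every value of this comparison. With CHIR in WT, β-catenin was present at 80.6%, 71.0% and 72.6% of the 62 gained regions with a CDX motif and at 72.7%, 64.9% and 64.6% of the 322 others. In CdxKO it was present at 43.5%, 51.6% and 46.8% of the regions with the motif and at 66.1%, 69.3% and 61.2% of the others. In T/BraKO it was present at 77.4%, 75.8% and 82.3% of the regions with the motif and 76.7%, 71.4% and 70.8% of the others. The motif-bearing regions lay above the others in each of the 6 WT and T/BraKO libraries and below them in each of the 3 CdxKO libraries.

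The difference between regions with and without the motif was 7.34 ± 1.11 points (SD, n = 3) in WT, -18.2 ± 4.13 in CdxKO and 5.51 ± 5.46 in T/BraKO. WT exceeded CdxKO by 25.6 points. At the 175 gained regions in at least 2 of 3 SOX2 lists of each genotype (27 with the motif), the difference was 0.434 ± 5.27 points in WT, -13.7 ± 3.43 in CdxKO and -1.94 ± 6.50 in T/BraKO, and WT exceeded CdxKO by 14.1. At the 234 regions in all 3 CdxKO SOX2 lists (24 with the motif) WT exceeded CdxKO by 11.5 points, with a CdxKO difference of -4.37 ± 12.2. Over all gained regions LEF1 showed 5.86 ± 4.63 points in WT, -14.5 ± 2.53 in CdxKO and -2.70 ± 3.98 in T/BraKO. At shared regions the β-catenin difference was 7.97 ± 1.82 points in WT, -2.81 ± 0.775 in CdxKO and 6.92 ± 3.05 in T/BraKO.

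**Figure D5:**
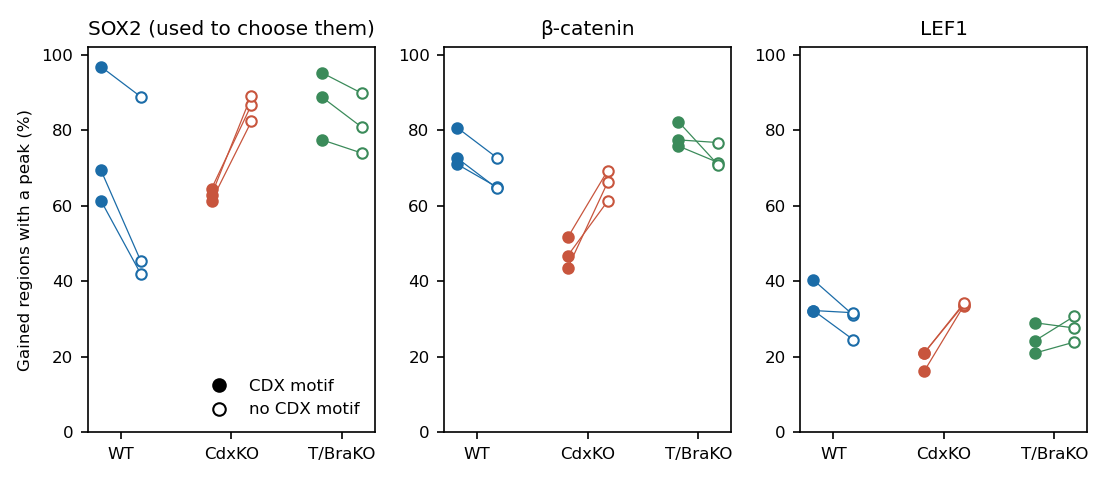
Percentage of the gained regions with (filled) and without (open) a CDX motif that had a SOX2, β-catenin or LEF1 peak among the 20000 best of each CHIR library, by genotype; lines join the values of 1 library. In CdxKO the regions with the motif lie below the others for all 3 factors, for β-catenin at 43.5% to 51.6% against 61.2% to 69.3%.

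SOX2 calls by the same motif are a description, because SOX2 chose the regions. In CdxKO, 64.5%, 62.9% and 61.3% of the 62 motif-bearing regions were called, against 86.6%, 89.1% and 82.3% of the others. In WT the order was reversed, at 61.3%, 69.4% and 96.8% against 41.9%, 45.3% and 88.8%. Of the 43 gained regions called in at most 1 CdxKO list, 48.8% held a CDX motif (34.6 to 63.2), against 10.3% of the 234 called in all 3 (6.99 to 14.8). For the TCF/LEF motif the intervals overlapped, at 32.6% (20.5 to 47.5) and 42.7% (36.6 to 49.1).

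The nearest protein-coding start belonged to a gene of 5 lists at 20 gained regions, and the lists were chosen with earlier results of these data known. The lists were caudal epiblast and WNT response, Hox, mesoderm and mesendoderm, pluripotency, and neural genes. Hox genes were nearest to 5 gained regions (1.30% of them, against 0.326% of the shared and 0.250% of all merged regions). Caudal and WNT response genes were nearest to 5 (1.30%, 1.21% and 0.613%), mesoderm and mesendoderm genes to 3 (0.781%, 0.544% and 0.384%), pluripotency genes to 3 (0.781%, 0.924% and 0.391%) and neural genes to 4 (1.04%, 0.906% and 0.685%). A nearest start does not show which gene a region acts on.

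The Hox genes set position along the trunk, and 5 gained regions had one as nearest gene. The 4 of them inside the clusters had few CdxKO peaks. A region lost from CdxKO SOX2 lists could enter the set only through WT and T/BraKO lists. The choice of regions therefore bears on the contrasts with CdxKO given here. At Hoxa4 (chr6:52190326-52191347, 856 bp past the start) SOX2 was 12.8-, 13.3- and 23.9-fold enriched in WT and 10.8-, 8.42- and 15.6-fold in T/BraKO. In CdxKO no peak was listed in replicates 1 and 2, and replicate 3 had one of 6.71-fold. β-catenin was 47.9-, 27.8- and 77.0-fold enriched in WT and 49.5-, 27.1- and 48.3-fold in T/BraKO, with a CdxKO peak in replicate 2 alone, at 5.93-fold. The window held a CDX and a TCF/LEF motif.

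At Hoxb8 (chr11:96283348-96284170) β-catenin was 16.9-, 12.9- and 11.8-fold enriched in WT and 20.6-, 13.6- and 20.2-fold in T/BraKO, with no peak among the 20000 best in CdxKO. Of the 2 regions at Hoxb9, the one 652 bp past the start (chr11:96271728-96272863) had β-catenin at 26.8-, 15.3- and 19.7-fold in WT, 22.05-, 23.03- and 22.97-fold in T/BraKO and 5.12-fold in CdxKO replicate 2 alone. The other, at the start itself, had no CdxKO β-catenin peak. SOX2 at the first of these had no CdxKO peak among the 20000 best, with values of 5.89 and 5.87 at lower ranks. That region thus entered the set through WT and T/BraKO lists only, so its low CdxKO values are bound up with the choice. The Hoxb8 region and both Hoxb9 regions were in exactly 6 CHIR SOX2 lists. All 4 regions inside the clusters lay within 1000 bp of a transcription start, and that at Hoxa4 also lay inside Hoxa3 and Hoxaas3. Both Hoxb9 regions drew on some of the same β-catenin peaks, so they are not independent.

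Among caudal and WNT response genes, the region 104 bp upstream of Cdx1, a gene mutated in CdxKO, had β-catenin and LEF1 in all 9 lists each. Its β-catenin enrichment was 121-, 144- and 163-fold in WT, 62.1-, 43.5- and 41.4-fold in CdxKO and 146-, 139- and 147-fold in T/BraKO, with every CdxKO value below all others. LEF1 was 35.4-, 36.6- and 33.2-fold in WT and between 8.89- and 21.6-fold in the 6 mutant libraries. SOX2 there was enriched 11.4- and 16.5-fold in WT replicates 1 and 3 and had no peak in replicate 2. Without CHIR, replicate 1 held a SOX2 peak of 6.39-fold at rank 21316.

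The region 26036 bp upstream of Nkd1, a feedback inhibitor of WNT signalling, had SOX2 in all 9 CHIR lists. β-catenin there was 29.9-, 28.3- and 56.7-fold enriched in WT, 19.2-, 14.5- and 9.95-fold in CdxKO and 58.6-, 44.9- and 39.0-fold in T/BraKO. The region 1226 bp upstream of Nkx1-2, a homeobox gene of the caudal epiblast, lay in an intron of Fgfr2 and had β-catenin in 9 of 9 lists and LEF1 in 1. Its SOX2 enrichment was 4.78-, 15.3- and 12.8-fold in WT CHIR, and 4.37- and 6.27-fold in noCHIR replicates 1 and 3. The regions at Gbx2 and Greb1 had β-catenin in 3 and 5 lists and LEF1 in none. Counting every listed start within 100000 bp, further gained regions lay 46721 bp from Wnt3a, 23366 bp from Sp5 and 15702 bp from Nkx1-2, each with β-catenin in 9 lists.

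The region 1142 bp upstream of Nodal, the ligand that patterns the primitive streak, was called for SOX2 in all 9 CHIR lists at 9.42- to 14.9-fold. The whole noCHIR lists held it at 6.02-, 4.76- and 5.90-fold. β-catenin was present in 8 of 9 lists. It was 6.12- and 9.55-fold enriched in WT replicates 1 and 2, between 7.39- and 19.5-fold in CdxKO and between 12.01- and 22.4-fold in T/BraKO. Near Mesp1, which encodes a factor of early mesoderm, β-catenin was 16.0-, 26.5- and 29.5-fold enriched in WT and 24.01-, 8.06- and 29.4-fold in CdxKO, and no T/BraKO list held a peak among the 20000 best.

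Regions near pluripotency and neural genes varied in β-catenin. The one 20020 bp upstream of Klf5, a pluripotency factor gene, had β-catenin in 9 lists, at 16.9- to 52.7-fold in WT. Its SOX2 was 6.61-, 4.60- and 15.5-fold enriched in WT CHIR, with only replicate 3 among the 20000 best. The noCHIR replicate 1 held it at 4.67-fold. The one at the Hes5 start, a Notch target gene, had no WT CHIR SOX2 peak among the 20000 best and β-catenin in 1 list. β-catenin was present in 9 lists at the Tfcp2l1 region, in 8 at the Pax7 region, in 3 at the Nr2f2 region and in 1 at the Hes3 region. The mesoderm gene Tbx3 was nearest, at 547602 bp, to a region with β-catenin in 9 lists and LEF1 in 6.

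By position, 175 gained regions were intergenic (45.6%, 40.7 to 50.6), 152 were intronic (39.6%, 34.8 to 44.6) and 49 lay within 1000 bp of a transcription start (12.8%, 9.79 to 16.5). Of the shared regions 22.4% lay at a transcription start (21.3 to 23.5). The median distance to the nearest start was 11379 bp for gained and 8202 bp for shared regions. Coding exons and UTRs held 1 and 6 gained regions. The median GC content of the windows was 46.8% for gained and 49.8% for shared regions, and the part of these differences in the motif shares was not tested. The 384 regions were nearest to 362 different genes, and 3 regions each were nearest to Mtss1, Pcmtd1 and Zfp36l2.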

How the data were processed

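Per the labels and the study's methods, the authors aligned single-end 76 bp reads to mm10 with BWA in the nf-core chipseq pipeline and called narrow peaks with MACS2 in each library, without pooling. Each deposited list gives a fold enrichment ratio at the summit, its −log10 p and −log10 q, and the summit position. No counts were used. The deposited score column, which the authors' caller made from the q-value, was not used. On chromosomes 1 to 19, X and Y, peaks were ordered by q-value with ties settled by p-value and fold, and the 20000 best of each SOX2 list were merged where they overlapped by at least 1 bp. SOX2 values at the regions are descriptive because they chose them; the regions and gene lists were chosen with earlier results of these data known. A β-catenin or LEF1 peak counted if it reached the window of 250 bp on each side of the best CHIR SOX2 summit. Shares were compared with exact permutation tests over libraries (scipy 1.17.1, two-sided for differences), checked on simulated data, at a threshold of 0.05. The study describes its triplicates as separate experiments, but the labels give every sample the same experiment name, so replicate numbers mark no known batch. GRCm38.p6 and GENCODE M21 (basic) were used; all named genes come from that annotation. Regions named were the 12 best by mean rank over the CHIR lists (a missing list counted as the next rank) and those whose nearest start belonged to a listed gene, some of which are not reported here. Alternatives were other list lengths, windows, overlaps, subsets of regions, a replicate block and leaving out each library. The 12 input samples were not used here.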

Additional observations from a re-analysis of the deposited data

Results flagged for a closer look

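The values below were picked out because the size of an effect differed between genotypes among 10 comparisons chosen after the data were seen, by the share of the variance among 9 libraries that lay between genotypes. The p-values are not printed, because the comparisons were chosen after the data were seen and SOX2 calls in the same genotypes chose the regions. Genotype accounted for 92.7% of the variance in the β-catenin share of gained regions with a CDX motif minus that of the others, and for 87.8% with LEF1. SOX2 was called at 61.3% to 64.5% of the CDX-motif regions in CdxKO libraries, against 82.3% to 89.1% of the others. At shared regions the CdxKO difference in β-catenin was -2.81 points. At the 175 gained regions in at least 2 of 3 SOX2 lists of each genotype, WT exceeded CdxKO in the CDX comparison by 14.1 points with β-catenin, against 25.6 over all gained regions. For the T-box motif genotype accounted for 82.8% with β-catenin and 90.2% with LEF1. Only 10 gained regions held the T-box motif: each LEF1 library called 4 of them in WT, 3 in CdxKO and 2 in T/BraKO, so 1 region moves the share by 10 points. The excess of LEF1 at gained over shared regions was 17.5 ± 2.19 points (SD, n = 3) in WT, 14.5 ± 0.480 in CdxKO and 13.4 ± 1.11 in T/BraKO. Genotype accounted for 68.5% of the variance in this excess. The LEF1 share at shared regions was 12.5% in WT and 17.04% in CdxKO, and at gained regions 30.03% and 31.5%, so WT did not lie above CdxKO at the gained regions themselves.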

How the results depend on the processing

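The number of gained regions depended on the rule. It was 1055 with full SOX2 lists, 81 when absence from the full noCHIR lists was also required, 77 with at least 8 of 9 CHIR lists and 175 with at least 2 of 3 lists in each genotype. Leaving out each SOX2 library in turn gave 224 to 603 regions, with at least 6 of the remaining CHIR lists and none of the remaining noCHIR lists. It fell to 227 without WT CHIR replicate 3, to 246 and 242 without CdxKO replicates 1 and 2, and to 247 and 224 without T/BraKO replicates 2 and 3, and rose to 603 without noCHIR replicate 1. The excess over shared regions stayed at 12.9 to 34.6 points for β-catenin and 11.8 to 27.5 for LEF1 over 9 other settings, one of them (at least 5 of the 7 CHIR lists other than WT replicates 1 and 2) chosen after the data were seen, at an adjusted p of 0.00391 in each. Leaving out single libraries gave 18.3 to 19.6 and 14.5 to 15.5 points (exact sign-flip permutation, adjusted p = 0.00781, the smallest for 8 libraries).

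Between genotypes, the variance share for β-catenin was 76.96% (exact permutation, adjusted p = 0.0286) with 10000 peaks per list, and 63.1% to 82.7% without single libraries (adjusted p = 0.0286 to 0.2). It was 54.99% (exact permutation, adjusted p = 0.143) without the demand on WT replicates 1 and 2. The LEF1 variance share was 23.5% to 66.4% without single libraries and 13.97% with full lists. SOX2 calls in the same genotypes chose the regions, which bears on all of these shares. The LEF1 difference of WT from T/BraKO turned to -4.43 points with full lists, and that of WT from CdxKO to 5.76 at the 81 regions absent from the full noCHIR lists; without single libraries the latter ran from -2.73 to 0.651, turning without WT replicate 2. The cause was not tested. Correlations between same-numbered libraries were -0.0221 to 0.119 for β-catenin, -0.0290 to 0.0214 for LEF1 and -0.0506 to 0.0638 for SOX2, short of the 0.1 in every pair that would mark shared numbers as paired. The own number was closest in 6, 4 and 7 of 9 comparisons. With a replicate block the variance shares were 81.7% for β-catenin (exact permutation within blocks, adjusted p = 0.111) and 46.5% for LEF1 (adjusted p = 0.306), and no call changed. The CDX-motif difference between WT and CdxKO ran from 23.4 to 28.1 points for β-catenin and from 11.9 to 22.99 for LEF1, and was 14.1 and 10.9 at regions in at least 2 of 3 SOX2 lists of each genotype and 11.5 and 24.2 at regions in 3 of 3 CdxKO lists, both chosen after the data were seen. Depth is unknown and rank 20000 stood for different strengths, so absence from a list of 20000 is not absence of binding.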
